A study of Mus musculus with 12 samples.

Results

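The genes followed here are 10 that store, carry, move or sense iron: *Fth1*, *Ftl1*, *Ncoa4*, *Trf*, *Tfrc*, *Slc11a1*, *Slc11a2*, *Slc40a1*, *Hamp* and *Hmox1*. They were taken by symbol from the 55335 genes of the count table, in which each of the 10 symbols is listed once. The table holds 12 mouse RNA-seq libraries in 4 groups of 3. The BMDMs (bone marrow-derived macrophages) came from male *Tshr* f/f and *Tshr* MKO littermates (6 weeks old by the labels, 6 to 8 weeks in the study's general protocol for BMDMs) and were differentiated for 7 days with M-CSF (10 ng/mL). All of them, controls included, were then given TSH (1 ng/mL) for 24 h. The livers came from male *Tshr* f/f and *Tshr* MKO mice that ate a high-fat diet for 9 weeks from the age of 6 weeks. All of these mice had fasted for 8 h and were killed 5 min after an insulin dose of 1.5 U/kg. In both genotypes the *Tshr* allele, which encodes the TSH receptor, is floxed, and in MKO mice Cre is driven by the *Lyz2* promoter, which is active in myeloid cells, so that hepatocytes keep the receptor gene. There were no BMDMs without TSH and no livers without the diet or insulin. The question put to the data is whether iron handling genes differ with the loss of the receptor in macrophages, in the macrophages themselves and in the liver.

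Iron is toxic when free, so cells keep it in ferritin, a shell built of heavy (*Fth1*) and light (*Ftl1*) chains, and release it by sending ferritin to lysosomes with the adaptor *Ncoa4*. Transferrin (*Trf*) carries iron in plasma to the transferrin receptor (*Tfrc*), and divalent metal carriers (*Slc11a1* in phagosomes of macrophages, *Slc11a2* in endosomes and in the gut) pass it into the cytosol. Macrophages that take up old red cells open heme with heme oxygenase 1 (*Hmox1*) and return the iron through ferroportin (*Slc40a1*), the only known iron exporter of mammalian cells, which the liver hormone hepcidin (*Hamp*) blocks.

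Several of these genes are also tied together by sequence. Iron regulatory proteins bind a hairpin, the iron-responsive element (IRE), in the mRNA; in the 5′ UTR they hold back translation and in the 3′ UTR they protect the mRNA from decay. The IREs are shown because they divide the 4 members in which the search below found them. In *Tfrc* the amount of mRNA is known to follow iron through this system, and in the others its translation. In the DNA letters of GRCm38 (GENCODE M21), each hairpin below has 29 bases, and the capitals mark the 6-base loop CAGTGN. The *Fth1*, *Ftl1* and *Slc40a1* hairpins lie in exon 1, in the 5′ UTR (chr19:9982732-9982760, plus strand, chr7:45459779-45459807, minus strand, and chr1:45925465-45925493, minus strand). The 4 *Tfrc* hairpins lie in exon 19, in the 3′ UTR, on the plus strand of chromosome 16, and start at 32631219, 32631598, 32631663 and 32631710.
Fth1: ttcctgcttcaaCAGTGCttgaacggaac
Ftl1: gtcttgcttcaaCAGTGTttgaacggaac
Slc40a1: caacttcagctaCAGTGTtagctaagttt
Tfrc, hairpin 1: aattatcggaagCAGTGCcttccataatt
Tfrc, hairpin 2: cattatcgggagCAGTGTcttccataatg
Tfrc, hairpin 3: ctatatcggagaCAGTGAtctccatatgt
Tfrc, hairpin 4: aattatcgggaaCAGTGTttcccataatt
The search took the loop with 5 paired bases on either side, an unpaired C and at least 4 of 6 further pairs, on the sense strand of each transcript. It found a match anywhere in a coding transcript, UTR or not, for 35 of 21877 coding genes, 0.16%, and for 4 of the 10 members. For the other 6 members it says only that these letters and pairs were not found.

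Library totals were 33683981 to 40954211 counts in BMDMs and 28962878 to 40420513 in livers, and no 2 libraries held the same counts. The 10 genes together took 2.08–3.25% of the counts of BMDM libraries and 1.595–2.90% of those of livers. Most of this was *Fth1* and *Ftl1* in BMDMs and *Trf* in livers. Only *Hamp* in BMDMs had counts of 0, and the lowest other count of a member was 146, for *Slc40a1* in f/f BMDM replicate 2. *Tshr* itself had 0, 0 and 2 counts in f/f BMDMs, 0, 0 and 5 in MKO BMDMs and 0 in all livers, too few to check the deletion. The normalization factor of f/f BMDM replicate 3 was 0.738, and those of the other BMDM libraries were 0.993 to 1.11. BMDM genotype fold changes of the members that rest on this library are given with and without it. So are those of the named list genes whose fold changed by over 1.5 times without it. Ratios, differences between tissues and differences between effects include this library unless stated otherwise. For the livers, the genotype follows the label of each library. Counts of receptor genes that the study tabulates for liver under genotype headings were found, for all 72 values compared, in the libraries labelled with the other genotype, and only 6 of the 72 also fitted the labels. Every liver difference between genotypes given here would turn under those headings. From its sequencing of livers the study lists *Lcn2*, *Egr1* and *Socs3* among the genes lower in MKO livers. By qRT-PCR it also reports lower *Lcn2*, *Itgam* and *Adgre1* mRNA in MKO livers. In these libraries their means were 69.6, 3.90 and 20.7 CPM in livers labelled MKO. They were 534, 8.20 and 24.7 CPM in livers labelled f/f, and the groups overlapped in each gene. Whether labels or headings are right was not tested, and other assays of the study on livers of each genotype are not used here. The livers are therefore called livers labelled f/f and livers labelled MKO. The study's methods give 3 mice per group for each tissue, while the labels number the libraries without tying them to animals.

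In TSH-treated BMDMs, the heavy chain of ferritin and heme oxygenase 1 were the iron handling genes with lower values in MKO cells, together with both divalent metal carriers, and *Trf* and *Ncoa4* had higher values. None of these differences passed the test over all genes. By edgeR's quasi-likelihood test, 0 of the 9 members with enough counts had an adjusted p under 0.05 (0 of all genes tested, 0%), and 6 of 9 had an unadjusted p under 0.05 (*Fth1*, *Hmox1* and *Slc11a2* lower, *Trf*, *Ncoa4* and *Tfrc* higher). Among all 15372 genes tested, 17.9% did, 10.2% lower and 7.73% higher. The 10 genes were chosen with earlier results of these data known, so their share is a description. In 6 of the 9 the 3 values of 1 genotype lay apart from the 3 of the other, which held for 28.7% of all genes. DESeq2, tried as an alternative, gave 4 of the 9 an adjusted p under 0.05 (*Fth1*, *Hmox1*, *Trf* and *Ncoa4*). The share of all genes called by DESeq2 is not given here, so this and later counts with DESeq2 are descriptions. With 1 library left out in turn, the number at an unadjusted p under 0.05 was 2 to 5. It was 5 without f/f replicate 3, 3 without MKO replicate 1 or 3, and 2 without MKO replicate 2.

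*Fth1* (ENSMUSG00000024661, chromosome 19, 9980598–9985098, plus strand) was the gene with the most counts in each f/f BMDM library and had rank 5 or 6 in the MKO libraries. It measured 17647, 20327 and 28053 CPM (counts scaled to library size, with TMM factors of the 6 BMDM libraries) in f/f cells and 12158, 12127 and 11839 in MKO cells. All MKO libraries lay below all f/f libraries, and they differed little among themselves (12041 ± 176 CPM, SD, n = 3) where the f/f libraries were spread (22009 ± 5403). The log2 fold change was -0.87 (SE 0.26, adjusted p = 0.222 with edgeR and 0.00679 with DESeq2). Without f/f replicate 3 it was -0.65, and with library totals alone, which set the median of all genes at 0.17, it was also -0.65.

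*Ftl1* (ENSMUSG00000050708, chromosome 7, 45457944–45459884, minus strand), the light chain, did not share this pattern. Its CPM were 7112, 6288 and 8223 in f/f BMDMs and 8683, 8242 and 6703 in MKO BMDMs. The groups overlapped, with a log2 fold change of 0.13 (SE 0.23, adjusted p = 0.779). Reads of near-identical copies are uncertain for this gene: 3 pseudogenes held a further 5.58–6.18% of its counts, and adding them left the direction of its fold change as it was.

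*Ncoa4* (ENSMUSG00000056234, chromosome 14, 32159865–32179855, plus strand), which delivers ferritin for breakdown, went the other way from *Fth1*. Its CPM were 280, 201 and 168 in f/f BMDMs and 361, 351 and 433 in MKO BMDMs, with no overlap. Its log2 fold change was 0.82 (SE 0.23, adjusted p = 0.222 with edgeR and 0.0192 with DESeq2). Its values were lowest in the f/f library with the most *Fth1* and highest in the MKO library with the least.

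**Figure D1:**
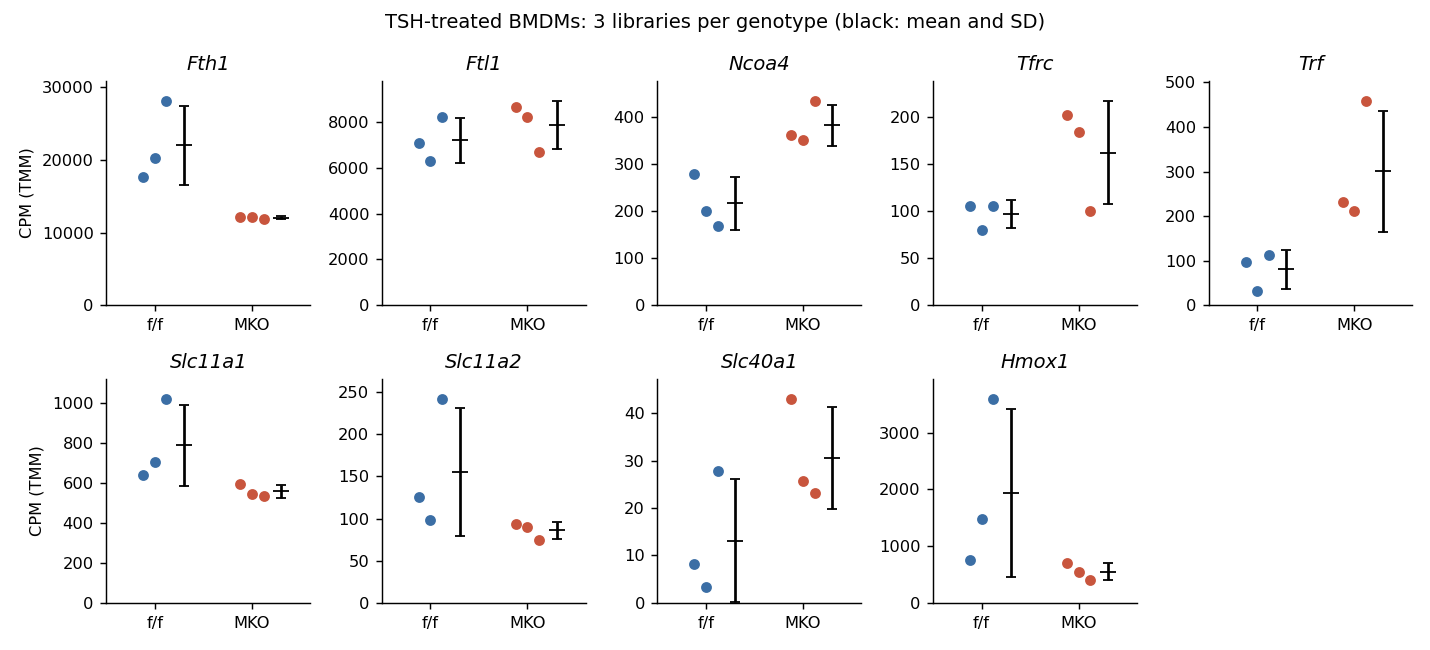
CPM (scaled with TMM factors of the 6 BMDM libraries, y axes from 0) of the 9 iron handling genes with counts in BMDMs, with 1 point per library (blue f/f, red MKO) and the mean with its SD in black. *Fth1*, *Hmox1*, *Slc11a1* and *Slc11a2* are lower in all 3 MKO libraries than in any f/f library, *Trf* and *Ncoa4* are higher, and the other 3 genes overlap.

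Of the uptake genes, *Trf* (ENSMUSG00000032554, chromosome 9, 103204001–103230444, minus strand), best known as a liver product, had the largest positive fold change among the members in BMDMs (without f/f replicate 3 that of *Slc40a1* was larger, with log2 values of 2.41 against 2.22). It measured 97.4, 30.9 and 113 CPM in f/f cells and 233, 211 and 458 CPM in MKO cells. The MKO values lay above all f/f values although both groups were widely spread. In log2 terms the fold change was 1.90 (SE 0.55, adjusted p = 0.222 with edgeR and 0.0137 with DESeq2), and it was 1.47 to 2.22 with 1 library left out. None of 6 hepatocyte marker genes reached 1 CPM in any BMDM library, and *Alb* had 0 counts in all of them.

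*Tfrc* (ENSMUSG00000022797, chromosome 16, 32608920–32632794, plus strand), the receptor and the carrier of the 3′ hairpins above, had 105, 79.7 and 106 CPM in f/f BMDMs and 202, 184 and 100.2 CPM in MKO BMDMs. MKO replicates 1 and 2 were well above the f/f libraries, and MKO replicate 3 was level with them. On the log2 scale the fold change was 0.74 (SE 0.29, adjusted p = 0.263 with edgeR and 0.153 with DESeq2). It was 0.99 without MKO replicate 3, 0.55 without MKO replicate 1 and 0.64 without MKO replicate 2.

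The phagosomal carrier *Slc11a1* (ENSMUSG00000026177, chromosome 1, 74375195–74386062, plus strand), known for resistance to intracellular bacteria, had 640, 705 and 1018 CPM in f/f BMDMs and 595, 544 and 532 CPM in MKO BMDMs. The groups did not overlap, but f/f replicate 1 and MKO replicate 1 were close. Its log2 fold change was -0.50 (SE 0.23, adjusted p = 0.305), and -0.27 without f/f replicate 3. *Slc11a2* (ENSMUSG00000023030, chromosome 15, 100387898–100425072, minus strand), the endosomal carrier, had 125, 98.1 and 242 CPM in f/f cells and 93.7, 89.7 and 74.7 CPM in MKO cells. Here f/f replicate 3 stood far above the rest and f/f replicate 2 just above the MKO libraries. Its log2 fold change of -0.85 (SE 0.34, adjusted p = 0.271) shrank to -0.38 without f/f replicate 3.

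The exporter *Slc40a1* (ENSMUSG00000025993, chromosome 1, 45908068–45926523, minus strand) was the least abundant of the 9 members counted in BMDMs. It measured 8.13, 3.34 and 27.8 CPM in f/f cells and 43.0, 25.6 and 23.2 CPM in MKO cells. The f/f values of replicates 1 and 2 were low, but f/f replicate 3 fell within the MKO range. The log2 fold change of 1.23 had an SE of 0.74 (adjusted p = 0.404). Without f/f replicate 3 it was 2.41 (adjusted p = 0.142 with edgeR), the largest shift among the members with that library left out. With any other single library left out it was 0.77 (without f/f replicate 2) to 1.40 (without MKO replicate 3). *Hamp* (ENSMUSG00000050440, chromosome 7, 30942368–30944032, minus strand) had 0 counts in all 6 BMDM libraries, where 3 counts would have been 0.0733–0.0891 CPM, a limit that covers counting error only.

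*Hmox1* (ENSMUSG00000005413, chromosome 8, 75093621–75100589, plus strand), which splits heme into iron, carbon monoxide and biliverdin and is a classic stress gene of macrophages, had the largest negative fold change. It measured 749.9, 1472 and 3591 CPM in f/f BMDMs and 696, 549 and 407 CPM in MKO BMDMs. The f/f libraries spanned a wide range, and f/f replicate 1 was only just above the highest MKO library. The log2 fold change was -1.81 (SE 0.59, adjusted p = 0.233 with edgeR and 0.0243 with DESeq2), and it was -1.004 without f/f replicate 3. *Fth1*, *Hmox1*, *Slc11a1* and *Slc11a2* were all highest in f/f replicate 3. *Fth1*, *Ftl1*, *Slc40a1* and *Hmox1* are all known targets of the stress factor NRF2, as are the antioxidant genes described further on, and of these 4 *Ftl1* and *Slc40a1* had positive fold changes, as given above.

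Ratios within a library do not move with the normalization, so they were compared as a second view, over 4 pairs of members in each tissue. Counts per kb of exon of *Fth1* were 0.958, 1.25 and 1.32 times those of *Ftl1* in f/f BMDMs and 0.541, 0.568 and 0.682 times in MKO BMDMs. The balance between the chains thus lay lower in every MKO library, by 0.97 on the log2 scale (two-sided exact permutation test, p = 0.1, adjusted p = 0.267). The ratio of *Tfrc* to *Fth1* was 0.00335, 0.00220 and 0.00212 in f/f BMDMs and 0.00934, 0.00849 and 0.00475 in MKO BMDMs, a log2 difference of 1.53 (exact permutation p = 0.1). For *Slc40a1* to *Fth1* the log2 difference was 2.53, again without overlap and with the same exact permutation p of 0.1. With 3 against 3 libraries 0.1 is the smallest p the test can give, so none of the 8 comparisons could pass 0.05. *Slc11a1* to *Slc11a2* overlapped in BMDMs (log2 difference 0.28), and all 4 ratios overlapped in the livers.

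**Figure D2:**
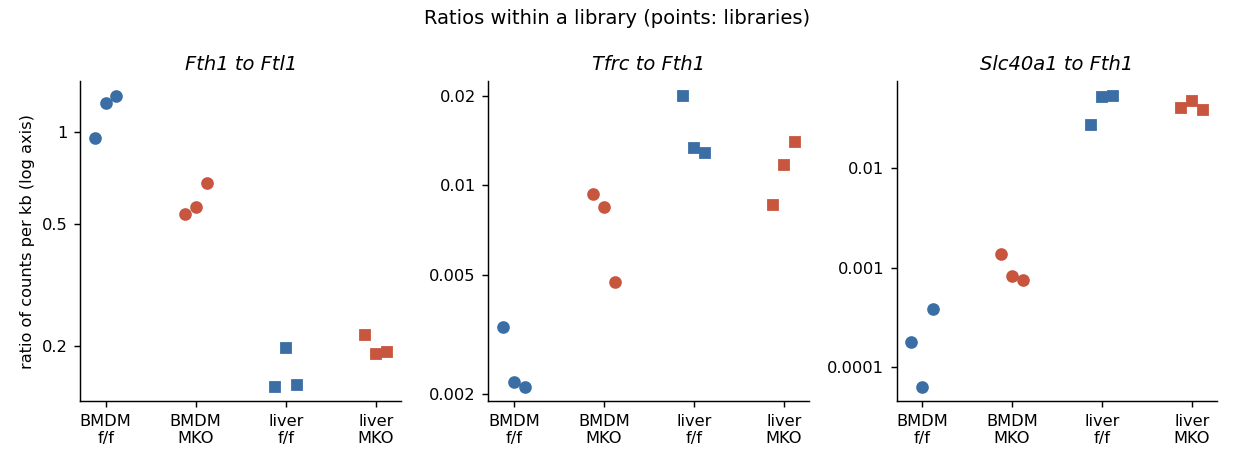
Ratio of counts per kb of exon within each library, on log axes, for *Fth1* to *Ftl1*, *Tfrc* to *Fth1* and *Slc40a1* to *Fth1*, with 1 point per library (circles BMDM, squares liver, blue f/f, red MKO). In BMDMs the genotypes do not overlap in any of the 3 ratios, and in livers they overlap in all 3.

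In the livers the members differed little by genotype. By edgeR's quasi-likelihood test, 0 of the 10 members had an adjusted p under 0.05 (0% of all genes tested). Only *Ncoa4* had an unadjusted p under 0.05, 1 of 10 members, against 10.5% of the 15062 genes tested. It was also the only member whose groups did not overlap, against 17.3% of all genes. The adaptor measured 149.9, 149 and 132 CPM in livers labelled f/f and 111, 109 and 116 CPM in livers labelled MKO. The values within each group lay close together and the MKO values were lower, with a log2 fold change of -0.36 (SE 0.092, adjusted p = 0.334 with edgeR and 0.0199 with DESeq2). It was -0.43 to -0.34 with 1 library left out.

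The ferritin chains overlapped between the livers. *Fth1* had 913, 859.9 and 875 CPM in livers labelled f/f and 1036, 883 and 919 CPM in livers labelled MKO, a log2 fold change of 0.10 (SE 0.11). *Ftl1* had 2406, 1691 and 2271 CPM in livers labelled f/f and 1852, 1813 and 1866 CPM in livers labelled MKO, a log2 fold change of -0.20 (SE 0.16). Neither chain differed in liver beyond the spread between libraries.

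*Trf*, one of the most abundant mRNAs of the liver (rank 2 to 4 by counts in every liver library), had 28753, 14802 and 17147 CPM in livers labelled f/f and 13466, 15708 and 13080 CPM in livers labelled MKO. The f/f replicate 1 stood far above the other 5 livers. The log2 fold change of -0.52 (SE 0.26, adjusted p = 0.527) was -0.19 without that library. *Tfrc* was also highest there, with 32.6, 20.5 and 20.0 CPM against 15.9, 18.5 and 22.97 CPM in livers labelled MKO (log2 fold change -0.35, SE 0.23), and the fold change was between -0.50 and -0.094 with 1 library left out.

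*Hamp*, the hormone, varied more among livers of 1 genotype than between genotypes. It measured 184, 85.5 and 397 CPM in livers labelled f/f and 124, 231 and 193 CPM in livers labelled MKO. All MKO values lay inside the f/f range, and the log2 fold change was -0.28 (SE 0.53, adjusted p = 0.905). Without f/f replicate 3, the highest library, the sign turned to 0.44. The copy *Hamp2* held 0.134–19.0% as many counts as *Hamp* in the livers. Its promoter is shown because *Hamp* is known to answer iron through BMP and SMAD signals and inflammation through STAT3. The window from 120 to 71 bases before the RefSeq start (GRCm38.p6, chr7:30944100-30944149, minus strand) holds 3 motifs in capitals, in the order GGCGCC (a BMP response element), TTCNNNGAA (STAT) and TGANTCA (AP-1).
Hamp: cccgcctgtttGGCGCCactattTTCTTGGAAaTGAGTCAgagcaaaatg
Searched on both strands in the 250 bases before each start of 32851 RefSeq promoters, these letters were found in 9.59%, 7.02% and 6.75%, so a match is common and says nothing of use in these livers. RefSeq promoters were listed for 6 of the 10 members.

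The exporter, the carriers and heme oxygenase overlapped as well. *Slc40a1* had 63.5, 115 and 121 CPM in livers labelled f/f and 106.3, 106.3 and 91.7 CPM in livers labelled MKO (log2 fold change 0.024, SE 0.24). *Hmox1* had 26.1, 35.6 and 24.2 CPM against 25.4, 39.8 and 26.0 CPM (log2 fold change 0.086, SE 0.22). Both signs turned when single libraries were left out, over -0.22 to 0.17 and -0.17 to 0.27. *Slc11a1* had 11.3, 36.7 and 15.4 CPM in livers labelled f/f and 16.0, 26.0 and 8.28 CPM in livers labelled MKO (log2 fold change -0.33, SE 0.55). *Slc11a2* had 47.0, 26.1 and 30.1 CPM against 23.9, 33.8 and 32.0 CPM (log2 fold change -0.20, SE 0.24). Neither carrier kept its sign with each library left out. *Slc11a1* was highest in f/f replicate 2, the liver with the highest sums of the macrophage (306 CPM) and Kupffer cell (590 CPM) marker lists. In whole liver, fewer cells of a type and less RNA per cell cannot be told apart.

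**Figure D3:**
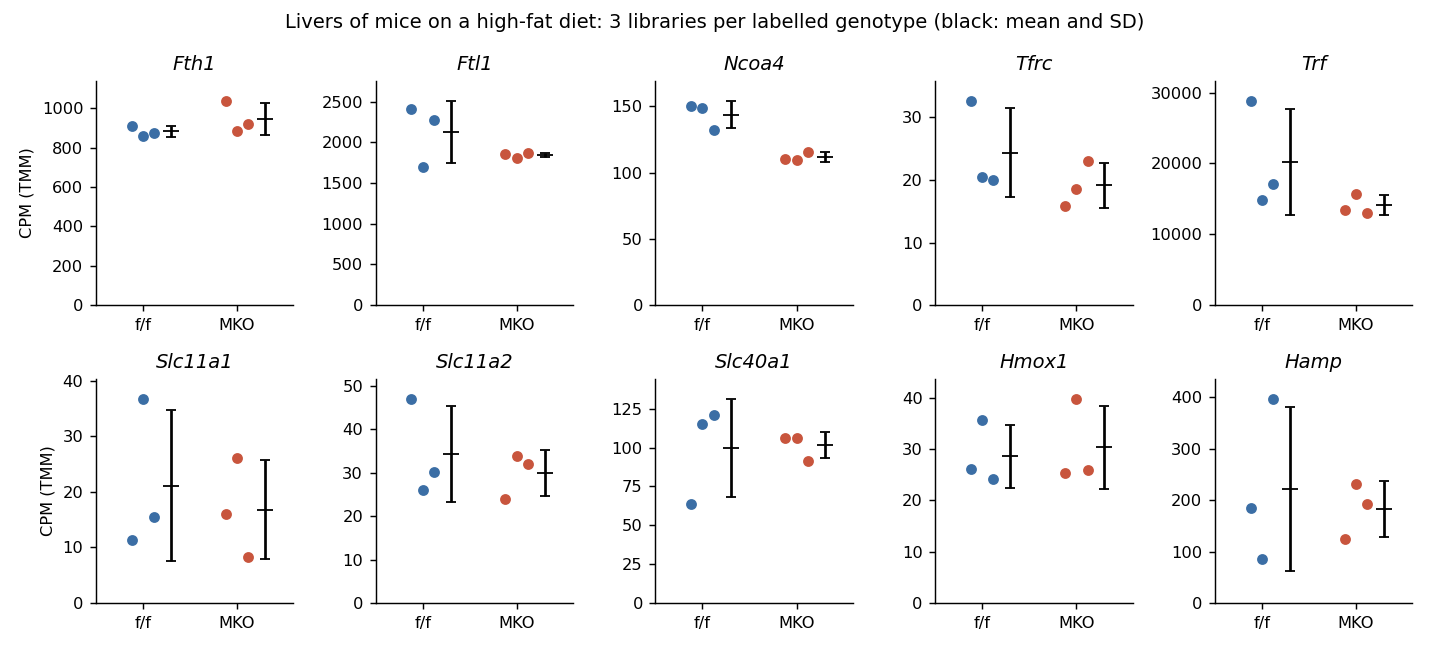
CPM (scaled with TMM factors of the 6 liver libraries, y axes from 0) of the 10 iron handling genes in liver, with 1 point per library (blue labelled f/f, red labelled MKO) and the mean with its SD in black. Only *Ncoa4* has no overlap between the groups, and the *Hamp* values of livers labelled f/f span 85.5 to 397 CPM.

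The genotype differences were then compared between the tissues with an interaction term in a fit of all 12 libraries, which holds for 9 members because *Hamp* had no count in BMDMs. The term was the log2 fold change in BMDMs minus that in livers. It had an adjusted p under 0.05 in 0 of 9 members (0.00580% of all genes tested) and an unadjusted p under 0.05 in 5 of 9, against 14.5% of the 17246 genes tested. *Ncoa4* had the lowest p, with a difference of 1.18 (SE 0.26, adjusted p = 0.139 with edgeR and 3.7e-04 with DESeq2). Its adjusted p was 0.0315 without f/f BMDM replicate 1. The differences were -0.97 for *Fth1* (SE 0.26, adjusted p = 0.187 with edgeR and 0.00693 with DESeq2) and 2.42 for *Trf* (SE 0.67, adjusted p = 0.195 with edgeR and 0.0127 with DESeq2). *Hmox1* (-1.91, SE 0.67, adjusted p = 0.254) and *Tfrc* (1.08, SE 0.39, adjusted p = 0.257) were the other 2 at an unadjusted p under 0.05. With 1 library left out, the difference of *Hmox1* was -2.29 to -1.09. With the liver labels exchanged, these 5 differences would keep their sign, but that of *Ncoa4* would shrink to 0.48 (SE 0.26, adjusted p = 0.415 with edgeR), that of *Trf* to 1.41 and that of *Tfrc* to 0.41. *Fth1* would be at -0.75 and *Hmox1* at -1.71. The members with an unadjusted p under 0.05 would then be 3 of 9 (*Fth1*, *Hmox1* and *Slc11a2*), against 14.1% of all genes.

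**Figure D4:**
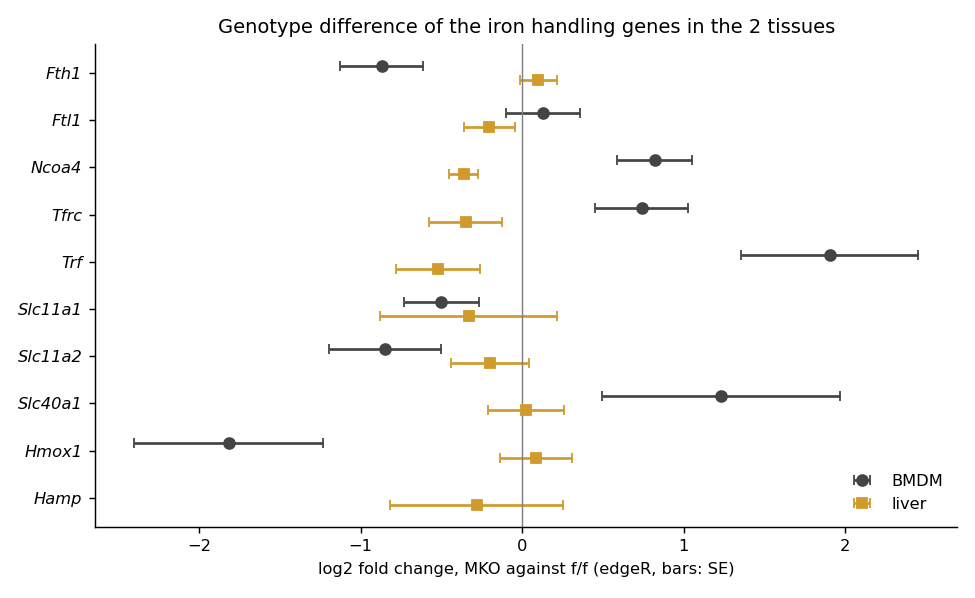
Log2 fold change of MKO against f/f (edgeR, bars SE) for each iron handling gene in BMDMs (grey circles) and in livers as labelled (yellow squares), with no BMDM value for *Hamp*. The BMDM values run from -1.81 (*Hmox1*) to 1.90 (*Trf*), and the liver values from -0.52 (*Trf*) to 0.10 (*Fth1*).

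Most members differed more between the cell type and the organ than between genotypes. *Ncoa4* differed less (log2 fold change -0.30, against 0.82 between BMDM genotypes). For *Tfrc* (1.11 against 0.74) and *Slc11a2* (1.29 against -0.85) the 2 sizes were closer. By edgeR between f/f BMDMs and livers labelled f/f, 9 of 10 members had an adjusted p under 0.05, where 63.4% of all 15931 genes tested did. The number was 8 without f/f liver replicate 1 and 7 without f/f liver replicate 2 or 3. *Ftl1* lost its call without any one of these 3 livers (adjusted p of 0.0510 to 0.0889 with edgeR), and *Slc11a2* without replicate 2 or 3 (0.0919 and 0.0993). Tissue, culture, TSH, diet and insulin cannot be told apart in this comparison. *Fth1* was higher in BMDMs, with a log2 fold change of 3.75 (SE 0.28, adjusted p = 1.1e-04), as were *Hmox1* (5.19, SE 0.68), *Slc11a1* (4.32, SE 0.55), *Slc11a2* (1.29, SE 0.40), *Tfrc* (1.11, SE 0.24) and *Ftl1* (0.87, SE 0.25). *Trf* was lower in BMDMs, by a log2 fold change of -8.86 (SE 0.75, adjusted p = 1.8e-04), and so was *Slc40a1* (-3.83, SE 0.83, adjusted p = 0.00723). *Hamp* was at least 3544-fold lower in BMDMs than in livers labelled f/f, taking 3 counts per BMDM library as the floor. That bound uses the mean of livers that ran from 284 to 1316 CPM per kb of exon, and it would be lower without f/f liver replicate 3, the highest. Against livers labelled MKO it was 2939-fold. *Ncoa4* was the member that did not pass (log2 fold change -0.30, SE 0.23, adjusted p = 0.295). Between MKO BMDMs and livers labelled MKO its log2 fold change was 0.90 (adjusted p = 2.2e-04). These values follow the liver labels, and f/f BMDMs against the livers labelled MKO gave 0.050 (adjusted p = 0.851).

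Compared per length (CPM per kb of exon, with TMM factors of all 12 libraries), the order of the members was read in each group. In f/f BMDMs *Fth1* (4654) and *Ftl1* (3947) led with overlapping ranges, followed by *Hmox1* (812) and *Slc11a1* (156). *Slc11a2* (17.9), *Trf* (17.8) and *Ncoa4* (16.9) then overlapped each other, *Tfrc* (11.5) overlapped *Slc11a2* and *Trf* but lay below *Ncoa4*, and *Slc40a1* (1.07) was last of the genes detected. Per length the chains changed places in MKO BMDMs and no longer overlapped, with *Ftl1* at 4336 and *Fth1* at 2563. There *Trf* (67.0) came before *Ncoa4* (30.1) and *Slc11a2* (9.99) after *Tfrc* (19.3). In livers labelled f/f *Trf* (8223) led, then came *Ftl1* (2141), and *Hamp* (733) overlapped *Fth1* (344). Far below them *Hmox1* (22.1) overlapped *Ncoa4* (20.8), and *Slc40a1* (15.03), *Slc11a1* (7.74), *Slc11a2* (7.30) and *Tfrc* (5.32) each overlapped the next. Per length the heavy chain was thus close to the light chain in f/f BMDMs and 0.147 to 0.196 times as abundant in livers labelled f/f. That order depends on the exon length used, which is the union of all annotated exons (3469 bases for *Fth1* and 1340 for *Ftl1*). By counts alone *Fth1* was 2.48 to 3.41 times *Ftl1* in f/f BMDMs and 0.379 to 0.508 times in livers labelled f/f. In MKO BMDMs it was 1.40 to 1.77 times *Ftl1*, so by counts the chains did not change places there.

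**Figure D5:**
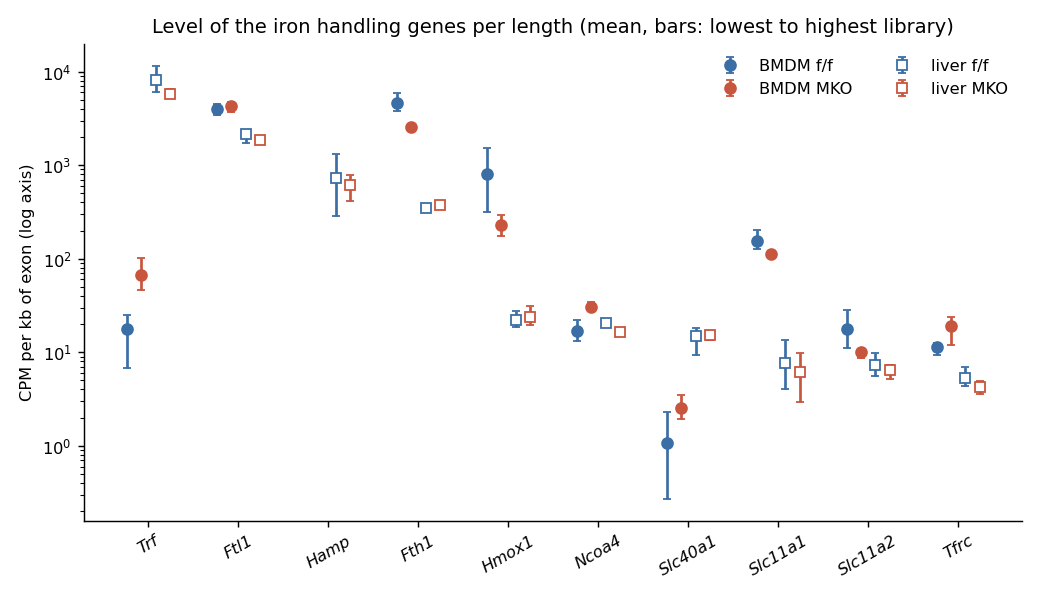
Mean level of each iron handling gene in CPM per kb of exon (log axis, bars from the lowest to the highest of 3 libraries, no bar where it is smaller than the symbol) in BMDMs (filled circles) and livers (open squares), blue f/f and red MKO. *Hamp* is absent from BMDMs, where it had 0 counts, and *Trf* and *Fth1* are each far higher in 1 tissue.

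Other iron and heme genes were read in 7 lists with 85 genes in all, and in each tissue 0 of them had an adjusted p under 0.05 with edgeR (15 in BMDMs and 2 in livers with DESeq2). In BMDMs the list with the largest share of genes at an unadjusted p under 0.05 held NRF2 targets outside iron handling, genes of glutathione and thioredoxin chemistry. That rank held without f/f replicate 1 or 3 and was lost with any other single BMDM library left out. The lists too were chosen with earlier results known. At an unadjusted p under 0.05, 7 of the 10 NRF2 targets were lower in MKO cells and 0 were higher, where 10.2% of all genes were lower and 7.73% higher. The median log2 fold change of this list was -1.25, and that of all genes was 0.0083. *Slc7a11*, the cystine importer, measured 209, 360 and 2291 CPM in f/f cells and 24.0, 19.2 and 44.6 CPM in MKO cells (log2 fold change -5.02, SE 1.07, adjusted p = 0.218, and -3.28 without f/f replicate 3). *Prdx1*, a peroxidase, measured 1887, 2432 and 4268 CPM against 1247, 1202 and 1182 CPM (log2 fold change -1.24, SE 0.33). Like *Fth1* and *Hmox1*, both were highest in f/f replicate 3, and without that library the median of the list was -0.70, with 6 genes lower and 1 higher at an unadjusted p under 0.05. With MKO replicate 1 or 2 left out, 3 genes were lower at that limit, and 4 with MKO replicate 3 left out. The other 5 lower genes, named after their values were seen, were *Gclm*, *Txnrd1*, *Srxn1*, *Gsr* and *G6pdx*, with log2 fold changes of -1.88 (*Txnrd1*) to -0.47 (*G6pdx*). Without f/f replicate 3 that of *Txnrd1* was -0.80 and that of *Srxn1* changed from -1.60 to -0.66.

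The other BMDM lists were read at the same limit, an unadjusted p under 0.05, which 17.9% of all genes tested met. Of 5 genes tested for iron regulatory proteins and other IRE mRNAs, 1 was lower and 2 higher (median log2 fold change -0.17). The lower 1 was *Fbxl5*, whose product senses iron and removes iron regulatory protein 2, with 213, 354 and 427 CPM in f/f cells and 70.7, 65.1 and 132 CPM in MKO cells (log2 fold change -1.89, SE 0.38). Of the 5 genes, 1 was higher without f/f replicate 1 or any one of the MKO libraries. The higher 2, named after their values were seen, were *Aco1* (0.41, SE 0.15), which encodes iron regulatory protein 1, and *Epas1* (1.25, SE 0.34). *Slc25a37*, mitoferrin 1, which brings iron into mitochondria, was the lower 1 of 13 mitochondrial genes, with 392, 367 and 652 CPM in f/f cells and 99.1, 86.7 and 132 CPM in MKO cells (log2 fold change -2.15, SE 0.30, adjusted p = 0.218). The median of that list was -0.092, and 2 of its genes were lower without f/f replicate 3 or without MKO replicate 3.

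Of 17 hepcidin control genes tested in BMDMs, 1 was lower and 4 higher at an unadjusted p under 0.05 (median 0.16), 5 of 17 where 17.9% of all genes met that limit. *Bmp2* (log2 fold change 1.93, SE 0.46), a BMP ligand, *Id1* (0.92, SE 0.17), a target of BMP signals, and *Cebpa* (1.96, SE 0.39), a transcription factor, were higher, as was *Hfe* (1.30, SE 0.45), and *Stat3* was lower (-1.20, SE 0.44, and -0.58 without f/f replicate 3). The last 2 were named after their values were seen. With MKO replicate 1 or 2 left out 0 genes of this list were lower, with MKO replicate 3 left out 2 were, and the number higher was 4 to 6 with 1 library left out. *Cebpa* measured 66.4, 70.4 and 28.0 CPM in f/f cells and 248, 232 and 159 CPM in MKO cells. Hepcidin itself was not detected in these cells, as given above. For iron uptake and trafficking 1 of 10 was lower (*Slc39a14*, -2.54, SE 0.73, and -1.26 without f/f replicate 3) and 1 higher (*Slc39a8*, 0.66, SE 0.23), both transporters of zinc and iron. In this list 0 genes were higher with any one of the MKO libraries left out, 2 were higher without f/f replicate 2 and 2 were lower without MKO replicate 2. For heme synthesis, export and breakdown 1 of 15 was lower (*Blvrb*, -0.999, SE 0.34) and 2 were higher (*Blvra*, 0.34, SE 0.13, and the heme exporter *Flvcr1*, 0.88, SE 0.30), and with MKO replicate 1 or 2 left out 0 genes of this list met the limit, and 1 with MKO replicate 3 left out. The shares of both lists were thus close to that of all genes. For binding outside the cell 2 of 7 were lower and 1 was higher, the hemoglobin scavenger receptor *Cd163* (1.02, SE 0.31). The number lower was 1 without MKO replicate 1 or 2 and 3 without f/f replicate 1, f/f replicate 2 or MKO replicate 3, and the number higher was 0 without MKO replicate 1 or 3 and 2 without f/f replicate 2. Except for *Lcn2*, the genes of these 3 lists were named after their values were seen. The median of the binding list was -1.46, the lowest of the 7 lists, and -0.42 without f/f replicate 3. Without f/f replicate 2, f/f replicate 3 or MKO replicate 1 it was not the lowest, since the NRF2 list was lower. The lower genes of the binding list were *Lcn2*, which binds bacterial iron carriers, and *Hp*, which binds hemoglobin. *Lcn2* measured 22.5, 282 and 898 CPM in f/f cells and 4.596, 2.69 and 2.92 CPM in MKO cells (log2 fold change -6.88, SE 1.37, and -5.47 without f/f replicate 3). *Hp* measured 349, 282 and 822 CPM against 129, 140 and 258 CPM (log2 fold change -1.46, SE 0.49, and -0.85 without that library). The summed level of 6 neutrophil markers was 7.33, 30.8 and 48.8 CPM in f/f BMDMs and 5.61, 4.91 and 11.2 CPM in MKO BMDMs, with *Camp* lower and *Ngp* and *Retnlg* higher without overlap. Their part in these values was not tested.

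In the livers the list for iron, heme and hemoglobin binding outside the cell stood furthest from the rest, with a median of -0.99 where that of all genes was -0.0064. At an unadjusted p under 0.05, 4 of 8 genes were lower and 0 higher in livers labelled MKO, where 5.18% of all genes were lower and 5.27% higher. These 4, named after their values were seen, were *Hp*, *Hpx*, *Lcn2* and *Ltf*, genes that the acute phase or neutrophils are known to supply. *Hp* measured 19516, 5679 and 8731 CPM in livers labelled f/f and 4420, 4858 and 5805 CPM in livers labelled MKO. *Hpx*, the heme carrier of plasma, measured 14611, 4075 and 7216 CPM against 3427, 3708 and 4116 CPM. In each gene f/f replicate 1 was the highest and the groups overlapped. That library was also the one with the highest *Trf* and *Tfrc*, and the sum of 6 neutrophil markers was 68.8 CPM in it against 6.57–25.0 CPM in the other 5 livers. Its endothelial (37.6 against 79.7–134 CPM), fibroblast or stellate cell (25.3 against 87.5–224 CPM), erythroid and macrophage marker sums were the lowest of the 6 livers. The part of these cell types in the values was not tested. Without f/f replicate 1, 1 of the 8 genes was lower at an unadjusted p under 0.05 and the median was -0.78. Leaving out MKO replicate 1 or 2 left 0 genes at that limit, and leaving out MKO replicate 3 left 1. The number lower was 6 without f/f replicate 2 (median -1.22) and 5 without f/f replicate 3 (median -1.07).

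The other liver lists showed small differences. *Steap3*, which reduces iron in endosomes, was higher in livers labelled MKO (log2 fold change 0.51, SE 0.093, adjusted p = 0.303), with 15.2, 15.4 and 16.3 CPM against 21.4, 21.5 and 23.6 CPM. Of 16 heme genes 2 were higher at an unadjusted p under 0.05, *Alad* (0.36, SE 0.084) and *Ppox* (0.26, SE 0.087), enzymes of heme synthesis, and 1 was lower, the repressor *Bach1* (-0.39, SE 0.15). Of 13 mitochondrial genes 3 were higher and 0 lower at that limit, which 10.5% of all genes met, *Iscu* (0.35, SE 0.11), *Glrx5* (0.39, SE 0.12) and *Bola3* (0.40, SE 0.16), which take part in building iron-sulfur clusters. Without f/f replicate 3 or without MKO replicate 3, 1 of the 13 was higher. *Bach1* and *Bola3* were named after their values were seen. With f/f replicate 3, MKO replicate 1 or MKO replicate 2 left out, the heme list had 1 gene higher and 0 lower at that limit. In the NRF2 list 2 of 9 genes were lower (*Srxn1* and *Gsr*), 0 without f/f replicate 1 or 3, 3 without f/f replicate 2 and 1 without any one of the MKO libraries. Of the IRE list *Epas1* was lower (-0.38, SE 0.14), and 0 genes of that list were lower without f/f replicate 1 or 2 or MKO replicate 1 or 2. For hepcidin control 0 of 19 genes passed even the unadjusted limit with edgeR (1 with DESeq2, and 1 with any one of the f/f libraries left out), where 10.5% of all genes did.

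Markers of cell types were read beside these results. In BMDMs all 6 macrophage markers were present, and their summed level was 14459–16066 CPM in f/f and 19800–29047 CPM in MKO cells without overlap. That gap was carried by *Lyz2*: the other 5 summed to 5589–6222 CPM in f/f and 5262–6727 CPM in MKO cells and overlapped. *Lyz2*, the gene whose promoter drives Cre, was higher in MKO cells (log2 fold change 0.95, SE 0.25, adjusted p = 0.218), while *Adgre1* was lower without overlap (-0.30, SE 0.20). Fibroblast markers summed to 614–1762 CPM in f/f and 378–733 CPM in MKO cells, and f/f replicate 2 was the highest. The 6 erythroid markers were each under 1 CPM in every BMDM library. Of 5 markers of Kupffer cells, the resident macrophages of the liver, *Marco* (174–421 against 36.1–94.7 CPM, log2 fold change -2.17, SE 0.49, adjusted p = 0.218 with edgeR) and *Timd4* (2.89–19.0 against 1.12–2.48 CPM) were lower in MKO BMDMs without overlap. *Vsig4* and *Cd5l* overlapped, *Clec4f* had 0 counts, and the sum of the 5 overlapped (229–505 against 64.8–373 CPM). The part of macrophage, Kupffer cell marker or fibroblast content in the differences of the members was not tested. In the livers the summed macrophage (120–306 against 125–287 CPM), Kupffer cell (223–590 against 195–503 CPM) and erythroid (97.5–345 against 148–224 CPM) markers overlapped between livers labelled f/f and livers labelled MKO.

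The genes whose pattern was most like that of 4 members were listed by Pearson's r of log2(CPM + 1), centred on the mean of each group, among genes with a mean of at least 10 CPM. Over 12 libraries these were *Tshz1* (r 0.97), *Rcbtb1* (0.97) and *Dst* (0.96) for *Fth1*, *Agrn* (0.96), *Gnb1* (0.95) and *Alkbh1* (0.95) for *Slc40a1*, and *Xylt2* (0.91), *Fyttd1* (0.90) and *Lemd2* (0.90) for *Hmox1*, out of 6221 genes. Over the 6 livers they were *Cyp4a31*, *Trappc8* and *Cct5* for *Hamp*, with r of 0.99 or above, out of 7347 genes. These are descriptions, since the best of so many genes over so few libraries will be high whatever the gene, and the libraries share depth and normalization.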

How the data were processed

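The authors deposited a table of read counts per gene for 12 libraries, made from strand-specific libraries (TruSeq, NovaSeq) with Skewer and FastQC 0.11.2. STAR, StringTie and the build mm10 stand in the submitters' processing notes without a role, and the counting program is not given in the sources used here. Genes were placed with GENCODE M21 (GRCm38), which lists 55154 of the 55335 genes.

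Each gene kept by filterByExpr was tested on the deposited counts by the robust quasi-likelihood fit of edgeR 4.0.16 (run under R 4.3.3) after TMM scaling. P-values were adjusted by Benjamini-Hochberg over every gene of that fit. The SE is the log2 fold change over the square root of F. Ratios were compared by exact permutation with scipy 1.17.1, tables were joined in pandas 2.3.3 under python 3.11.15, and matplotlib 3.10.9 drew the plots. The edgeR step was tested on simulated data.

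The members and lists were chosen with earlier results of these data known. Named from the lists were genes with an unadjusted p under 0.05 and groups that do not overlap, at most 8 per comparison by p. The 3 most alike genes were named for 4 members. Alternatives were other factors, no filter, pseudogene counts added, all libraries in 1 fit, replicate number as a block, DESeq2 1.42.0, the MARS model and each library left out. Library totals alone, exchanged liver labels, and the lists under each setting were added after seeing the data. Strand was kept in the libraries, but how the counting used it is not given, so overlapping genes are uncertain. These held few counts.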

Additional observations from a re-analysis of the deposited data

Results flagged for a closer look

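*Ncoa4* stood out because its genotype effect differed between the tissues: it was higher in all 3 MKO BMDM libraries than in any f/f BMDM library and lower in all 3 livers labelled MKO than in any liver labelled f/f. The difference between the effects was 1.18 on the log2 scale (SE 0.26), with an adjusted p of 0.139 by edgeR's interaction term, so it did not pass the test over all genes. The adjusted p was 3.7e-04 with DESeq2 and between 3.7e-04 and 0.415 over all alternatives. The direction in liver follows the labels, while the study's receptor table has the headings the other way. The study's sequencing list of genes lower in MKO livers holds *Lcn2*. By qRT-PCR the study reports lower *Lcn2*, *Itgam* and *Adgre1* in MKO livers, and their means were also lower in livers labelled MKO, with overlap. Whether labels or headings are right was not tested. With the liver labels exchanged, both tissues would have higher *Ncoa4* in MKO, and the difference would be 0.48 (SE 0.26, adjusted p = 0.415 with edgeR).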

How the results depend on the processing

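All 9 BMDM differences kept their sign under every alternative, as did 5 of 10 in liver, 8 of 9 between tissues and 7 of 9 of the differences between effects. With DESeq2 the members called at an adjusted p under 0.05 were 4 in BMDMs, 1 in livers and 3 for the difference between effects. With MARS, which has no replicate term, they were 9 in BMDMs and 10 in livers, and those of the lists 68 and 61. The shares of all genes called by DESeq2 and MARS are not given here, so these counts cannot be set against them. DESeq2 called 15 and 2 genes of the lists, and the fit of all libraries 3 in BMDMs. At an unadjusted p under 0.05, livers had 2 members with DESeq2, 10 with MARS and 0 in the fit of all libraries. With the replicate number as a block, *Ftl1* lost its call between tissues (adjusted p = 0.0912 with edgeR), and 3 members in BMDMs and 3 for the difference between effects had an unadjusted p under 0.05. Same-numbered libraries correlated at r of 0.15, 0.036 and 0.12 in BMDMs and -0.075, 0.25 and -0.033 in livers. With so few libraries these values cannot tell whether the numbers pair the samples.

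With each library left out in turn, members at an unadjusted p under 0.05 were 2 to 5 in BMDMs and 1 to 3 in livers, and 0 to 1 passed the adjusted threshold for the difference between effects. Signs turned in livers for *Slc40a1* (-0.22 to 0.17), *Hmox1* (-0.17 to 0.27), *Hamp* (-0.67 to 0.44), *Slc11a1* (-0.81 to 0.33) and *Slc11a2* (-0.37 to 0.082), for the difference between effects of *Slc11a1* (-0.85 to 0.31), and for the liver ratios of *Slc11a1* to *Slc11a2* (-0.73 to 0.54) and *Slc40a1* to *Fth1* (-0.34 to 0.15). *Slc40a1* in liver was -0.073 with a covariate for the letter that begins each sample ID, *Ncoa4* between tissues 0.90 in MKO libraries and 0.050 with the liver labels exchanged, and the difference between effects of *Slc11a1* 0.046 with library totals alone. With the liver labels exchanged the difference between effects of *Ftl1* was -0.054, and 3 members had an unadjusted p under 0.05. The causes were not tested. *Hamp* in BMDMs was the only case of a member with counts of 0.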
